A study of Mus musculus with 27 samples.

Results

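Cytochrome P450 genes were taken as the protein-coding genes of the GRCm38.p6 gene table whose symbol is Cyp followed by a digit, which gave 99 of 21887 protein-coding genes. DNA methylation at these genes was followed in hepatocytes of 27 female mice aged 12 weeks, 3 biological replicates from each of 9 inbred strains: C57BL/6J, A/J, NZO/HlLtJ, 129S1/SvImJ, NOD/ShiLtJ, DBA/2J, WSB/EiJ, PWK/PhJ and CAST/EiJ. The labels name no treatment, transgene or other genotype for any strain, and no strain served as a control. The study asked how genetic differences between strains relate to differences in chromatin marks and expression; the methylation data alone are used here. WSB/EiJ, PWK/PhJ and CAST/EiJ are wild-derived; the remaining 6 are classical laboratory strains.

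Cytochrome P450 enzymes are haem proteins that insert oxygen into small molecules. In the liver, members of families 1, 2 and 3 oxidise drugs, toxins and steroids, family 4 oxidises fatty acids, and families 7, 8 and 27 turn cholesterol into bile acids. Other members make steroid hormones, handle vitamin D or break down retinoic acid, largely in other tissues. Many of the genes lie in clusters of similar copies. Methylation of the cytosine in CpG is usually low at active promoters with many CpGs and high in gene bodies.

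Methylation was read by reduced representation bisulfite sequencing (RRBS), which cuts genomic DNA with MspI at CCGG and reads near the cuts. Between 2904787 and 3156965 positions were listed per sample, each with a percent methylation, and samples of a strain correlated at r = 0.949 to 0.973 over positions. The files hold no read counts, so depth is unknown, no interval for counting error can be given, and each spread is that between replicates. A gene's level is the mean percent over positions from 2 kb before to 2 kb after its span that were listed in at least 2 of the 3 samples of every strain. Each sample listed between 2165 and 2218 of the 2225 such positions at cytochrome P450 genes.

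RRBS read few positions at many of these genes. Of the 99 genes, 96 had a position listed in some sample and 50 had the 5 positions required for a gene level. No usable position, as defined above, was found at 32 genes (32.3%, against 18.7% of all protein-coding genes), and the median gene had 5 positions against 57. The gap lay in the drug-metabolising families: 23 of 43 members of Cyp2a, Cyp2b, Cyp2c, Cyp2d, Cyp2e, Cyp2f and Cyp3a had none. All 4 Cyp2a genes had none, and so had Cyp2e1, whose enzyme oxidises ethanol, and Cyp3a11, a major drug-oxidising enzyme. In Cyp3a 2 of 9 genes, in Cyp2b 1 of 5 and in Cyp4a 3 of 8 had any. Cyp2c had positions at 12 of 15 genes, Cyp2d at 4 of 8 and Cyp4f at 8 of 9. Cyp26b1 with 306 positions, Cyp26c1 with 153 and Cyp46a1 with 150 had the most positions.

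The sequences just upstream of the starts show this contrast. The RefSeq table of GRCm38.p6 gave a start for 77 of the 99 genes, and 6 of these promoters are printed 5′ to 3′ on the gene's strand, as the 250 bases before the start, with CpGs that hold a usable position in capitals. Cyp51 is shown as a dense and nearly unmethylated promoter. Cyp4f39 and Cyp1a1 are shown because strains differed within 500 bp of the start, a window wider than the printed bases. Cyp26c1 is shown as a methylated promoter beside a gene body that differed, and Cyp8b1 and Cyp2e1 as marker genes whose promoter had no usable position.
Cyp51: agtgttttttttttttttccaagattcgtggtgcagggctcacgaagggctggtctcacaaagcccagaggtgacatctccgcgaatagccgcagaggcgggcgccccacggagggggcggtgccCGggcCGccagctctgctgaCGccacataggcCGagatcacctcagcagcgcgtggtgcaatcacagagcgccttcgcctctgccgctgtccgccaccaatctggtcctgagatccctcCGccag
Cyp4f39: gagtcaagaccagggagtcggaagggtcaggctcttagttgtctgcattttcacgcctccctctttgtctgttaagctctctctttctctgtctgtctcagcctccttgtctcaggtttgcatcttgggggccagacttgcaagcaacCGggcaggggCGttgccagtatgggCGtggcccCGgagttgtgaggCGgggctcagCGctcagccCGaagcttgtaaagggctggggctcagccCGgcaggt
Cyp1a1: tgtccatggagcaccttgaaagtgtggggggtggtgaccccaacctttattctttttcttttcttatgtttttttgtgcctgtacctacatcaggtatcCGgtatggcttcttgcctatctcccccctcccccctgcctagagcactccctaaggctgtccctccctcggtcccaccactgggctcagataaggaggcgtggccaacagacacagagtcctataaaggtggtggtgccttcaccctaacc
Cyp26c1: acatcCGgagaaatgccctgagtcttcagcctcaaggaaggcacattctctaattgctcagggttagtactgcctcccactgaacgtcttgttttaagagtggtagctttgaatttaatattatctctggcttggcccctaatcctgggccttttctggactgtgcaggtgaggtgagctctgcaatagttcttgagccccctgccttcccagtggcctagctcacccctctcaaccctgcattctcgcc
Cyp8b1: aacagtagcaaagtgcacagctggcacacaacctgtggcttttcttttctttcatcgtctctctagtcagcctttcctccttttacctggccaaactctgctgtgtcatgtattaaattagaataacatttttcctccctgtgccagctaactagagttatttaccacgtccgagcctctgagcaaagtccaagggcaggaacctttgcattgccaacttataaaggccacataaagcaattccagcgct
Cyp2e1: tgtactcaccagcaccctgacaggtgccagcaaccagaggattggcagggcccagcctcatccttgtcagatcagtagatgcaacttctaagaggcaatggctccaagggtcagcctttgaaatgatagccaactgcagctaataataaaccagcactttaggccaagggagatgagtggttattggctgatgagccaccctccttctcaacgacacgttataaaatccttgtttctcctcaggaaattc
Cyp51 (chr5:4104698-4104947, minus strand) holds 20 CpGs, of which 5 had a usable position. Cyp4f39 (chr17:32452473-32452722, plus strand) holds 10, of which 8 had one. Cyp1a1 (chr9:57697363-57697612, plus strand) and Cyp26c1 (chr19:37685430-37685679, plus strand) hold 3 each, of which 1 had one in each. Cyp8b1 (chr9:121916306-121916555, minus strand) holds 4 and Cyp2e1 (chr7:140763569-140763818, plus strand) holds 2, none with a usable position.

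The MspI site CCGG, which reads the same on both strands, occurred in the 300 bases from 250 before to 50 after the start in 23 of 77 cytochrome P450 promoters (29.9%), against 63.4% of 17492 promoters. The median number of CpGs in these windows was 3 against 14. Of the 23 with CCGG, 15 had a usable position within 500 bp of the start, and of the 54 without it, 4 had. In all, 19 of 77 cytochrome P450 promoters (24.7%) had a usable position, against 66.5% of all. In the drug-metabolising families 1 of 38 promoters had a usable position.

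Where promoters had usable positions, most were low. Within 500 bp of the start, 10 of 17 cytochrome P450 promoters with at least 3 positions lay under 10% methylation, against 87.2% of all promoters. The lowest were Cyp51 at 0.506% over 56 positions, Cyp20a1 at 0.616%, Cyp4v3 at 0.664% and Cyp27a1 at 0.749%. Cyp51 makes a step of cholesterol synthesis that most cells need, and Cyp27a1 oxidises the cholesterol side chain on the way to bile acids. Cyp26a1 lay at 0.995%, Cyp46a1 at 1.32% and Cyp2r1, a vitamin D 25-hydroxylase, at 1.75%. Cyp2w1 at 91.4% and Cyp26c1 at 93.2% were the 2 promoters over 80%. By distance, the median sample lay at 10.2% from 0 to 250 bp after the start of cytochrome P450 genes and at 64.7% from 10000 to 50000 bp, against 2.502% and 63.7% for all genes. From 500 to 1000 bp after the start the median sample lay at 32.4% against 5.83%, over 65 positions in 8 genes, and the lowest and highest samples were 22.0 and 40.8%.

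**Figure D1:**
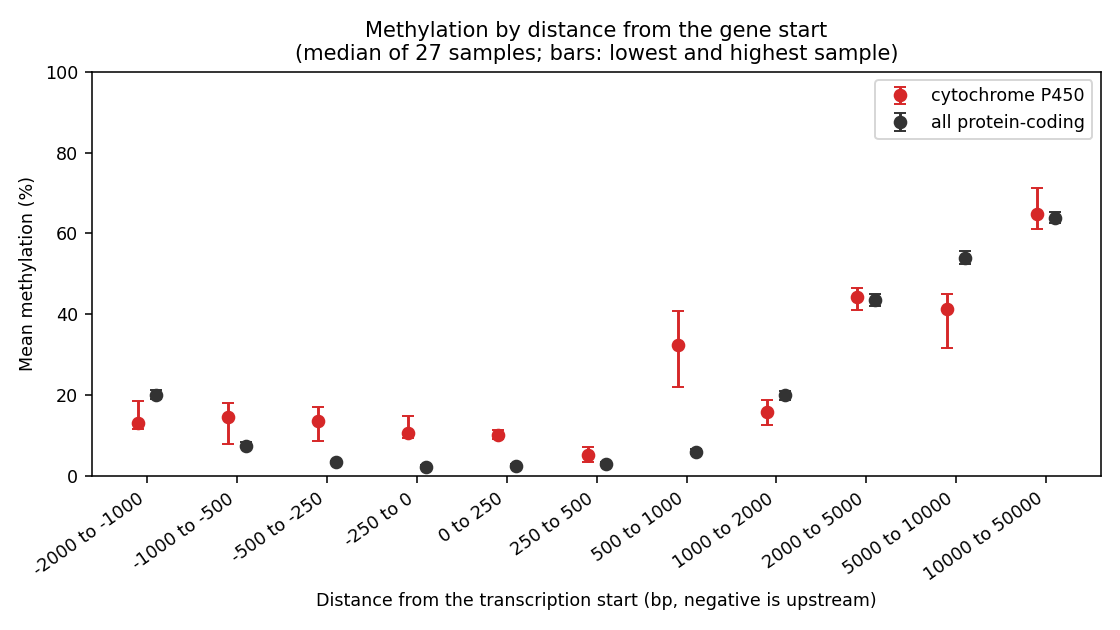
Mean methylation in percent (y axis) by distance in bp from the transcription start (x axis) for cytochrome P450 genes in red and all protein-coding genes in black, as the median of 27 samples with bars to the lowest and highest sample. The red points lie above the black ones from 1000 bp upstream to 1000 bp downstream of the start, with 10.2% against 2.502% in the first 250 bp, and near them from 10000 to 50000 bp. They lie below from 2000 to 1000 bp upstream and, downstream, from 1000 to 2000 bp and from 5000 to 10000 bp.

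The hepatocyte label could be checked only through methylation, as no RNA is read here. Of the 4 marker genes, Cyp8b1 and Cyp1a2 had usable positions in the gene and none in the promoter window, the promoter of Cyp7a1 was not analysed here, and Cyp2e1 had no usable position at all. Of 8 hepatocyte markers, 2 had usable promoter positions, Apob at 6.48% (single samples from 0 to 17.6%) and Hnf4a at 4.84% (from 0.570 to 25.4%). The promoter of the endothelial marker Tie1 lay at 92.2%, that of the leukocyte marker Coro1a at 9.98%, and those of the stellate markers Lrat and Des at 3.71% and 17.4%. Cholangiocyte promoters lay at 24.3% for Krt7 and 52.1% for Epcam. The promoters of Ptprc, Cd3e, Stab2 and Alb had no usable position. The share of other cells in each sample, and its part in the differences below, was not tested.

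Gene levels spanned nearly the whole scale. The lowest of the 50 genes with a level were Cyp51 at 0.585%, Cyp2r1 at 1.75% and Cyp4x1 at 2.07%, and the highest were Cyp2j13 at 97.9%, Cyp2c68 at 94.7% and Cyp21a1 at 94.4%. All 68 positions of Cyp2r1 and 56 of the 71 of Cyp51 lay in the promoter window, so the levels of these genes largely repeat those of their promoters. These 3 lowest genes and Cyp2j13 were not tested, since a mean this close to 0 or 100% leaves little room for a large difference. Smaller ones could still be seen at Cyp2r1, which had 68 positions. It lay at 4.17, 4.83 and 6.36% in 129S1/SvImJ and at 3.62, 4.04 and 5.49% in CAST/EiJ. Every other sample lay at 2.31% or below, and this difference was not tested. Over the 46 genes tested the median level was 53.5%, against 25.3% over all 14818 genes tested. Genes with more positions per kb were lower, with a Spearman correlation of -0.536 over the 46 genes and -0.446 over all genes, given as a description since the genes share libraries and base composition.

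Levels differed among strains at a large share of the genes that could be tested. A gene was called when its limma F test over the 9 strains had a Benjamini-Hochberg adjusted p under 0.05 over all genes and its strain means spanned at least 10 percentage points. This held for 17 of 46 cytochrome P450 genes, or 37.0%, against a background of 8.06% of all genes tested. By adjusted p alone the count was 24 of 46, against a background of 31.1%. The median span of strain means was 8.36 points against 3.07, and the median SD within strains was 2.71 points against 1.13. The tested cytochrome P450 genes had a median of 24.5 positions against 86 and lay nearer the middle of the scale. The part of these features in the count was not tested. The same test was run on 1 kb tiles with at least 5 positions, called at a span of at least 25 points: 19 of 90 cytochrome P450 tiles, or 21.1%, were called against a background of 7.75% of all tiles, and they fell in 13 genes. At single positions listed in all 27 samples, called at the same span, 140 of 1082, or 12.9%, were called against a background of 4.97%. Most of the 140 lay in Cyp26c1 (62 of 137 tested), Cyp46a1 (24 of 72) and Cyp4f13 (13 of 20). Both strands of some CpGs were counted, and neighbouring positions are not independent, so the share is largely that of these genes. The count of 140 depended on the setting. It was 77 (7.12%, against 2.97% of all positions) with an offset of 1 point in the log transform and 89 (8.23% against 3.75%) with the replicate number as a block. Without CAST/EiJ and PWK/PhJ it was 21 of 1041 (2.02%), near the 1.76% of all positions. For promoter windows of at least 3 positions within 500 bp of the start, called at a span of 10 points, the count was 4 of 10 against a background of 20%. For strain pairs below, adjusted p-values are from limma contrasts of the same fit, adjusted over all genes or tiles within each of the 36 pairs.

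**Figure D2:**
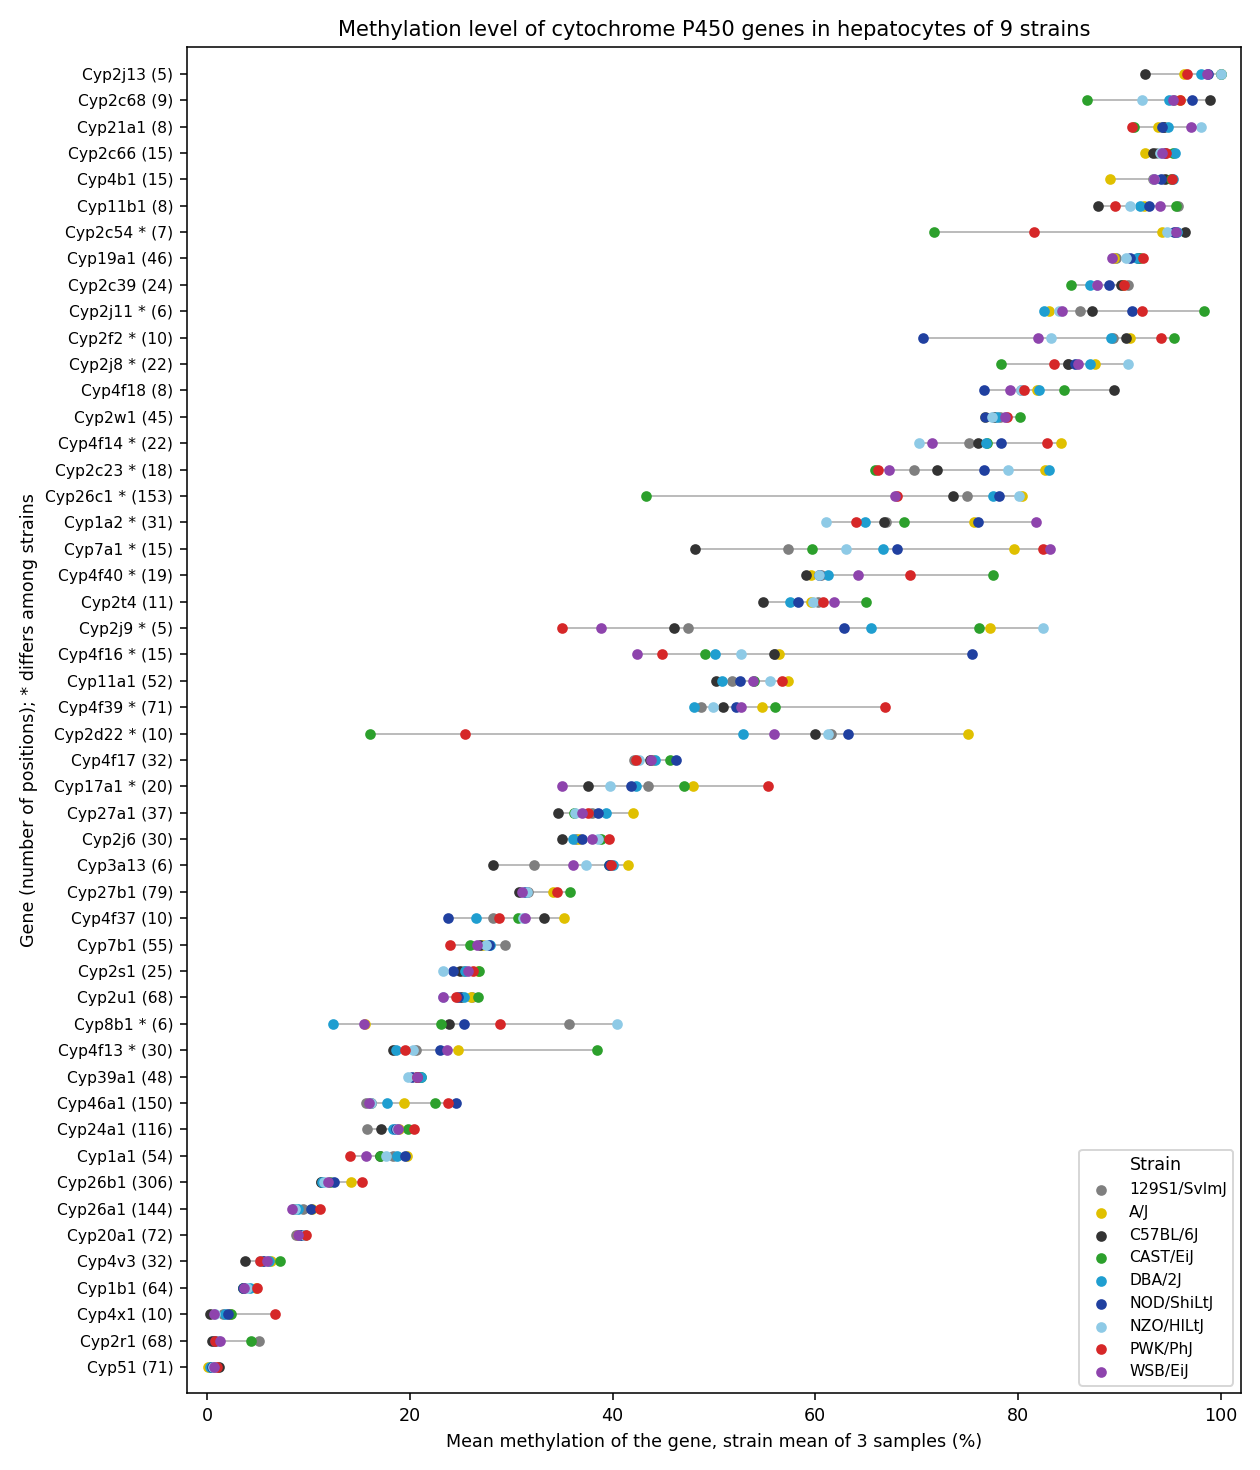
Methylation level in percent (x axis) of the 50 cytochrome P450 genes with at least 5 positions (y axis, number of positions in parentheses), ordered by level. Each point is the mean of 3 samples of a strain, the grey line joins the lowest and highest strain, and an asterisk marks the 17 genes called different among strains; Cyp2d22, Cyp2j9 and Cyp26c1 have the widest lines.

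Among the genes of sterol and bile acid synthesis, 2 of 6 tested were called, Cyp7a1 and Cyp8b1, against 8.06% of all genes tested. Cyp7a1 (chromosome 4, 6265612 to 6275632) encodes cholesterol 7α-hydroxylase, the rate-limiting enzyme of the classic bile acid pathway. Its 15 positions lay lowest in C57BL/6J, at 45.5, 46.9 and 52.1%, and in 129S1/SvImJ at 51.7, 52.3 and 67.8%. They lay highest in WSB/EiJ at 79.1, 82.6 and 87.8%, PWK/PhJ at 77.4, 81.1 and 88.7%, and A/J at 71.7, 82.0 and 85.1%. The samples of these 3 strains did not overlap those of C57BL/6J or 129S1/SvImJ, and the means of CAST/EiJ, DBA/2J, NOD/ShiLtJ and NZO/HlLtJ lay between. Samples of these 4 strains ran from 54.5 to 73.0% and overlapped 129S1/SvImJ and A/J. The strain means spanned 34.99 points, from 48.2 ± 3.44% to 83.1 ± 4.40% (SD, n = 3; limma F test, adjusted p = 6.02e-05). No pair among WSB/EiJ, PWK/PhJ and A/J passed the pair contrasts, and none among C57BL/6J, 129S1/SvImJ, CAST/EiJ and NZO/HlLtJ. Of the 15 positions, 14 fell in a single stretch inside the gene, from 6272508 to 6272745, whose 1 kb tile spanned 37.9 points (adjusted p = 5.55e-05).

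Cyp8b1 (chromosome 9, 121914356 to 121916305), the sterol 12α-hydroxylase that sets the share of cholic acid, had 6 usable positions. Levels were lowest in DBA/2J at 9.96, 12.8 and 14.4% and highest in NZO/HlLtJ at 34.0, 42.1 and 45.3%, with no overlap between those strains. 129S1/SvImJ followed at 29.9, 33.9 and 43.1%, while WSB/EiJ at 8.67, 18.9 and 19.0% and A/J at 13.9, 14.6 and 18.2% lay near DBA/2J. C57BL/6J samples were spread from 12.9 to 35.1%. The span of means was 28.1 points (adjusted p = 0.00143), and 8 of 36 strain pairs differed, among them NZO/HlLtJ and 129S1/SvImJ each against DBA/2J, A/J and WSB/EiJ. The order of strains differed from that at Cyp7a1: A/J and WSB/EiJ were among the highest there and among the lowest here.

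**Figure D3:**
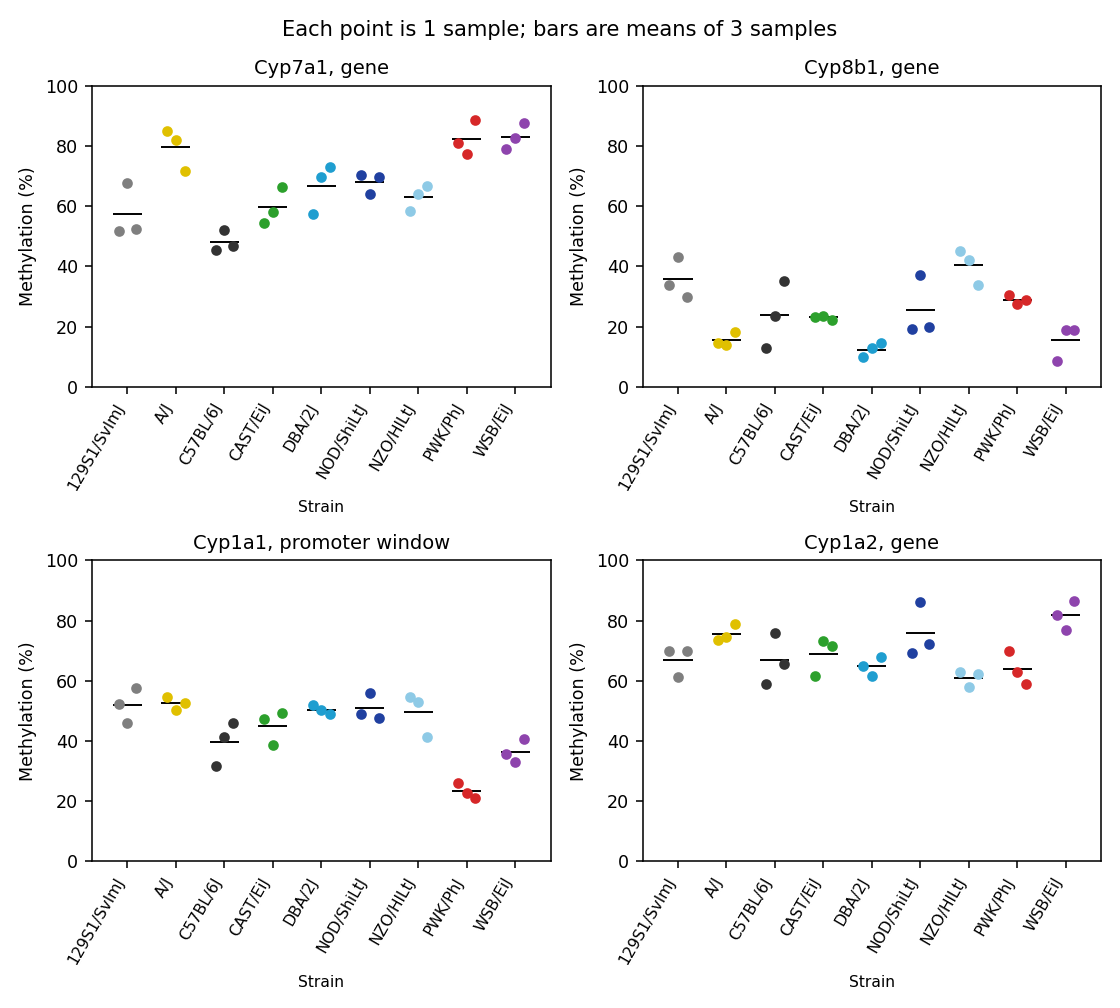
Methylation in percent (y axis) of each of the 3 samples of each strain (x axis) at Cyp7a1, Cyp8b1 and Cyp1a2 as gene means and at the Cyp1a1 promoter window; black bars are strain means. C57BL/6J is lowest at Cyp7a1 (48.2%), DBA/2J at Cyp8b1 (12.4%), PWK/PhJ at the Cyp1a1 promoter (23.3%) and NZO/HlLtJ at Cyp1a2 (61.0%).

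Cyp46a1 (chromosome 12, 108334268 to 108362234), cholesterol 24-hydroxylase, which clears cholesterol from the brain, differed within a low gene level. The gene mean was 19.1% and its strain means spanned 8.86 points, under the span required for a call, although the adjusted p was 5.79e-10. Inside the gene 2 neighbouring tiles were called, with positions 17726 to 18935 bp from the start. The called single positions of these tiles lay from 18376 to 18935 bp; positions not listed in all 27 samples were not tested singly. Upstream of the start, at -986 bp, a further position was called, with PWK/PhJ at 36.9% and WSB/EiJ at 1.19% (adjusted p = 0.0131). In the tile from 108353001 to 108354000, with 9 positions, the samples of NOD/ShiLtJ lay at 44.8, 52.7 and 57.5%, of CAST/EiJ at 46.6, 47.2 and 52.4%, and of PWK/PhJ at 42.2, 42.3 and 46.0%. A/J was intermediate at 24.6, 26.1 and 28.4%. The other 5 strains had means from 7.19 ± 1.79% in 129S1/SvImJ to 15.4 ± 7.70% in DBA/2J. The 9 high samples did not overlap the rest, and no pair of the 3 high strains passed the pair contrasts (span 44.5 points; adjusted p = 9.82e-10). The neighbouring tile, with 29 positions, had the same 3 strains on top, at 41.4 ± 4.82%, 35.1 ± 2.62% and 38.1 ± 1.44%, with the others at 11.9 to 23.1% (adjusted p = 1.66e-05). The promoter window of Cyp46a1 stayed at 1.32% with a span of 1.498 points.

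The remaining genes of this group were not called: Cyp27a1 had a level of 37.7% and a span of 7.35 points, Cyp7b1 27.03% and 5.36 points, and Cyp39a1 20.7% and 1.31 points. Of the 48 Cyp39a1 positions, 38 lie inside its neighbour Slc25a27.

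Among the retinoic acid hydroxylases 1 of 3 genes was called, against 8.06% of all genes tested, too few genes to compare shares. It was Cyp26c1, with the lowest adjusted p of the 17 called genes. Cyp26a1, Cyp26b1 and Cyp26c1 encode enzymes that break down retinoic acid, the active form of vitamin A. Cyp26c1 (chromosome 19, 37685112 to 37693320), with 153 positions, lay at 39.4, 42.3 and 48.3% in CAST/EiJ, while the other 24 samples ran from 63.7 to 81.2% with a median of 76.5%. The CAST/EiJ samples lay well below every other sample. CAST/EiJ differed from each of the other 8 strains, and PWK/PhJ (68.0 ± 3.85%) and WSB/EiJ (67.8 ± 2.86%) lay below A/J, DBA/2J, NOD/ShiLtJ and NZO/HlLtJ, which had means from 77.6 to 80.4%. The strain means spanned 37.1 points (adjusted p = 8.76e-10).

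The low CAST/EiJ level ran over the body of the gene and not over its start. The promoter window lay at 90.1, 90.8 and 91.0% in CAST/EiJ and at a median of 93.7% in the other 24 samples (span 3.90 points; adjusted p = 0.896). From 500 to 2500 bp after the start, CAST/EiJ averaged 54.6% and the other strains 83.9 to 92.2%, and CAST/EiJ was below all 8 at 35 of 43 positions. From 2500 to 7000 bp it averaged 36.6% against 61.4 to 76.0%, and was lowest at 15 of 17 positions. From 7000 to 8000 bp it averaged 28.2% against 52.9 to 75.1%, and was lowest at 70 of 72. Over the whole gene CAST/EiJ was below all other strains at 124 of 153 positions, and at exactly 0 at 2 positions. The distances were chosen after the values were seen and carry no test.

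**Figure D4:**
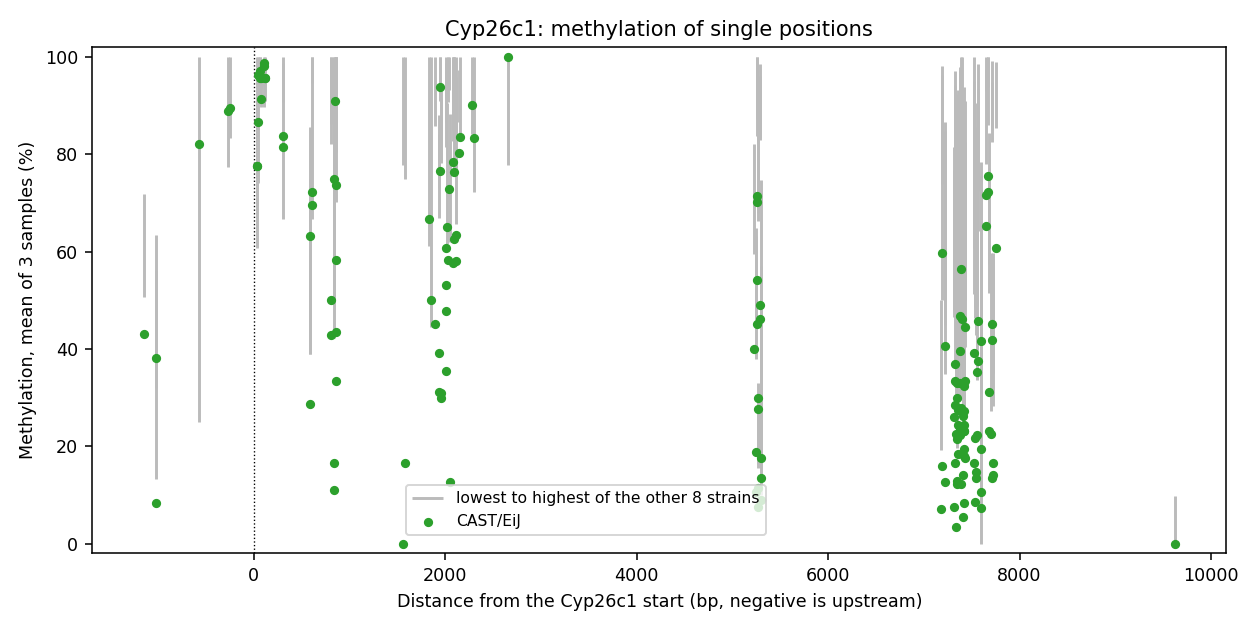
Methylation in percent (y axis) of the 153 single positions at Cyp26c1 by distance in bp from its start (x axis). Green points are the CAST/EiJ mean of 3 samples and grey lines run from the lowest to the highest mean of the other 8 strains; from 7000 to 8000 bp CAST/EiJ lies below all of them at 70 of 72 positions.

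Of the 19 called tiles, 5 lay in Cyp26c1. The tile with most positions, 65 from 37693002 to 37693430, lay at 25.5, 26.4 and 34.0% in CAST/EiJ and from 45.0 to 78.1% elsewhere (span 47.8 points; adjusted p = 7.09e-09). CAST/EiJ differed from all 8 other strains in each of the 5 tiles. Of the 140 called positions, 62 were in Cyp26c1. CAST/EiJ was the lowest strain at 60 of the 62. These positions were called on the same values and include both strands of some CpGs, so this count adds no support. The lncRNA gene Gm32342 covers the same stretch, so the genes cannot be told apart by position.

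The other Cyp26 genes had smaller spans of strain means. Cyp26a1 had 144 positions, a level of 9.37% and a span of 2.70 points (adjusted p = 0.00375). Cyp26b1 (chromosome 6, 84571414 to 84593908) had a level of 12.4% over 306 positions and a span of 4.07 points (adjusted p = 1.80e-05), neither reaching the 10 points required. A single tile of Cyp26b1, far inside the gene with 31 positions, was highest in PWK/PhJ at 50.1, 56.3 and 63.0% and lowest in 129S1/SvImJ at 17.2, 23.6 and 28.9%, and those samples did not overlap (span 33.2 points; adjusted p = 1.72e-05). Without CAST/EiJ and PWK/PhJ its span was 23.4 points (adjusted p = 0.00495), which ended the call. Elsewhere in Cyp26b1 PWK/PhJ was the lowest strain, at the called positions 84576901 and 84576902, which adjoin as the 2 strands of 1 CpG do. There PWK/PhJ lay at exactly 0 and the other strains from 84.2 to 100% (limma F test, adjusted p = 2.94e-08 and 2.98e-08). The part of a sequence variant in PWK/PhJ at this site was not tested.

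CAST/EiJ and PWK/PhJ are also the strains in which fewest reference positions were listed. Of 2970 cytochrome P450 positions that every C57BL/6J sample held, 372 (12.5%) appeared in no CAST/EiJ sample and 371 (12.5%) in no PWK/PhJ sample, against 12.1% and 12.0% over the genome and 2.86 to 5.39% at cytochrome P450 genes of the other strains. Positions at exactly 0% in a strain while the others averaged over 50% numbered 7 among cytochrome P450 positions (0.315%) and 3587 over the genome (0.184%), and 17 genes were still called without them, an alternative added after the data were seen. Strain sequences were not used here, and the part of sequence variants in any difference of CAST/EiJ or PWK/PhJ was not tested beyond this. Without both strains, 10 of 46 genes were called (21.7%), against a background of 3.87%. The calls that ended were those of Cyp2c54, Cyp2d22, Cyp2j8, Cyp2j11, Cyp4f13, Cyp4f39 and Cyp4f40, and Cyp26c1 was still called with a span of 12.6 points. Tiles called fell to 6 of 85 (7.06%), against 3.45% of all tiles in that fit. The calls that ended were those of all 5 tiles of Cyp26c1, 1 of the 2 of Cyp1a2, and the tiles of Cyp1a1, Cyp26b1, Cyp2d22, Cyp4f13, Cyp4f16, Cyp4f39 and Cyp4f40. In Cyp26c1 the tile with most positions spanned 23.1 points (adjusted p = 0.000323), under the 25 required.

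In the aromatic compound group, which the aryl hydrocarbon receptor induces, 1 of 3 genes was called, against 8.06% of all genes tested. So few genes do not allow the shares to be compared. A second gene was called at its promoter window, as were 20% of all promoter windows tested. Cyp1a1 (chromosome 9, 57687928 to 57703824), which oxidises polycyclic aromatic compounds, had 5 promoter positions, at -420 to -150 bp from its start. They lay at 21.2, 22.7 and 26.1% in PWK/PhJ and at 33.2, 35.7 and 40.7% in WSB/EiJ. A/J lay at 50.3, 52.8 and 54.5%, and 129S1/SvImJ at 46.0, 52.1 and 57.6%. PWK/PhJ lay below all 24 other samples, which ran from 31.7 to 57.6%, and differed from each of the 8 other strains at the tile scale (span 29.2 points; limma F test, adjusted p = 2.59e-05 as a promoter and 8.38e-05 as a tile). The window and the tile hold the same 5 positions and sample values, so they are 1 result adjusted over different sets of features. Without CAST/EiJ and PWK/PhJ these values lost their call as a tile (F test, adjusted p = 0.0728) and kept it as a promoter window (adjusted p = 0.0283). The receptor's motif TNGCGTG, searched on both strands, was not in the 300 bases around the Cyp1a1 start; it occurred in 1 of 77 cytochrome P450 promoters and in 6.11% of all, and says nothing of binding elsewhere.

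Cyp1a2 (chromosome 9, 57676937 to 57683655), which oxidises caffeine and arylamines and lies beside Cyp1a1, was highest in WSB/EiJ at 76.9, 81.8 and 86.5% and lowest in NZO/HlLtJ at 57.9, 62.1 and 63.1%. The 2 strains did not overlap, but NOD/ShiLtJ ran from 69.3 to 86.3% (span 20.7 points; adjusted p = 0.0153). WSB/EiJ differed from DBA/2J, NZO/HlLtJ and PWK/PhJ, and no other pair passed the test. The call ended when WSB/EiJ replicate 4 was left out (adjusted p = 0.0516). Its 2 called tiles, with positions 1251 to 1842 bp from the start, were both highest in WSB/EiJ, at 56.4 ± 12.6% and 92.0 ± 4.36%; the tile at 92.0% lost its call without PWK/PhJ replicate 1, without WSB/EiJ replicate 2, and without CAST/EiJ and PWK/PhJ together, where it spanned 24.03 points. WSB/EiJ thus had the second lowest mean at the Cyp1a1 promoter and the highest at Cyp1a2. Cyp1b1 lay at 3.99% with a span of 1.38 points and was not called.

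Among the steroid hormone genes, which are mostly expressed in adrenal and gonad, 1 of 5 tested was called, against 8.06% of all genes tested. So few genes do not allow the shares to be compared. Cyp17a1 (chromosome 19, 46667165 to 46673000), the 17α-hydroxylase and 17,20-lyase, lay at 51.7, 57.1 and 57.3% in PWK/PhJ and at 34.2, 34.95 and 35.8% in WSB/EiJ (span 20.3 points; adjusted p = 0.000116). The samples of these strains did not overlap; a CAST/EiJ sample at 51.9% overlapped PWK/PhJ. PWK/PhJ differed from 6 of 8 strains, all but A/J and CAST/EiJ. A tile of 8 of its 20 positions, also within the lncRNA Gm41857, differed by more than the gene mean. It lay at 77.0 ± 4.12% in PWK/PhJ and 39.0 ± 4.63% in WSB/EiJ. The levels of Cyp11b1, Cyp21a1 and Cyp19a1 were high, at 92.4, 94.4 and 90.9%, with spans of 7.86, 6.80 and 3.02 points, and none was called. Cyp11a1, the side-chain cleavage enzyme, lay at 53.6% with a span of 7.03 points. All 8 positions of Cyp11b1 lie inside the overlapping gene Gml2, and Cyp11b2 had 2 positions.

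For vitamin D, neither tested gene was called at the gene scale. Cyp24a1, which inactivates the hormone, lay at 18.5% with a span of 4.69 points (adjusted p = 0.000656), and 58 of its 116 positions lie inside Pfdn4. Cyp27b1, which activates it, had a promoter window that was called: CAST/EiJ samples lay at 13.0, 27.3 and 28.6%, PWK/PhJ at 16.8, 23.6 and 24.8%, and DBA/2J at 5.28, 6.24 and 9.22%. DBA/2J did not overlap the 2 high strains, but other strains reached 15.2% and overlapped the lowest CAST/EiJ sample (span 16.1 points; adjusted p = 0.000966). This call ended without CAST/EiJ and PWK/PhJ (adjusted p = 0.282). Of the 79 positions of Cyp27b1, 20 lie inside a neighbouring gene.

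The fatty acid families held 8 of the 17 called genes, from 15 tested (53.3%), against 8.06% of all genes tested. In the Cyp4f family 5 genes were called, all in a cluster on chromosome 17, and 8 of 9 family members could be tested; Cyp4f enzymes oxidise long-chain fatty acids and leukotrienes. The 5 did not share a strain order, as follows.

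Cyp4f13 (32924688 to 32947415) was higher in CAST/EiJ, at 36.7, 38.4 and 40.3%, than in the other 24 samples, which ran from 15.7 to 28.2% (span 20.1 points; adjusted p = 1.46e-07). The difference lay in 14 positions from 32924788 to 32924854, 22507 to 22573 bp from the start. There CAST/EiJ lay at 36.2, 37.3 and 40.2%, A/J at 7.35, 9.42 and 16.0% and WSB/EiJ at 3.69, 7.64 and 10.7%, and means in the remaining 6 strains were 0.749 to 2.31% (adjusted p = 5.35e-09). CAST/EiJ differed from all 8 strains. It was also the highest strain at all 13 called positions of the gene, but these were called on the same values. CAST/EiJ was thus the highest strain here and the lowest at Cyp26c1.

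Cyp4f16 (32536545 to 32551798) stood apart in NOD/ShiLtJ, at 71.7, 76.2 and 78.5%, against 39.7 to 70.1% in the other 24 samples, and NOD/ShiLtJ differed from each of the other 8 strains (span 33.1 points; adjusted p = 0.00286). Its tile of 8 positions from 32551121 to 32551157 had the widest span of all called cytochrome P450 tiles, 66.4 points, with NOD/ShiLtJ at 60.4, 68.8 and 75% and WSB/EiJ at 0, 2.5 and 2.5%. Replicates of other strains were far apart there: A/J ran from 4.17 to 52.1% and 129S1/SvImJ from 0 to 42.4%. Of the contrasts of NOD/ShiLtJ, those with CAST/EiJ, PWK/PhJ and WSB/EiJ passed the test (adjusted p of the F test = 0.0103), and the tile was not called from the positions listed in all 27 samples (adjusted p = 0.0722), nor without CAST/EiJ and PWK/PhJ.

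Cyp4f39 (32452697 to 32493320) was set apart in PWK/PhJ, at 66.4, 66.9 and 67.1% against 45.0 to 57.8% in the other 24 samples (span 18.8 points; adjusted p = 4.14e-07). PWK/PhJ differed from all 8 strains. Its promoter window, part of whose sequence is printed above, had 33 positions and showed the same strain. PWK/PhJ lay at 37.6, 40.6 and 40.7% against 18.1 to 26.1% elsewhere (span 20.5 points, limma F test, adjusted p = 1.39e-07). Without CAST/EiJ and PWK/PhJ this promoter lost its call (adjusted p = 0.0902). Far inside the gene, a tile of 16 positions was highest in PWK/PhJ at 90.5 ± 3.75% and next in CAST/EiJ at 79.6 ± 6.22%, with the other strains from 51.7 to 70.7% (adjusted p = 0.000443). So PWK/PhJ was highest at the promoter window and at this tile, but not at the 2 positions of the gene called singly. At 32487024 it was lowest, at 32.4% against 50.1 to 100% in the other strains. At 32492092, inside the tile, CAST/EiJ was highest at 100% and PWK/PhJ lay at 82.7%.

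Cyp4f40 (32658886 to 32676919) was highest in CAST/EiJ at 74.6, 77.5 and 80.5%, above all other samples, of which the highest was 73.6% (span 18.4 points; adjusted p = 0.000599). Its called tile lost the call without CAST/EiJ replicate 4 or replicate 5. Cyp4f14 (32903357 to 32917376), a leukotriene hydroxylase of the liver, was highest in A/J at 81.4, 85.5 and 85.6% and lowest in NZO/HlLtJ at 67.9, 69.6 and 73.4%, with no overlap (span 13.9 points; adjusted p = 0.000664). The 3 Cyp4f genes tested and not called were Cyp4f17, Cyp4f18 and Cyp4f37, with spans of 4.11, 12.8 and 11.4 points and adjusted p-values of 0.730, 0.477 and 0.843.

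**Figure D5:**
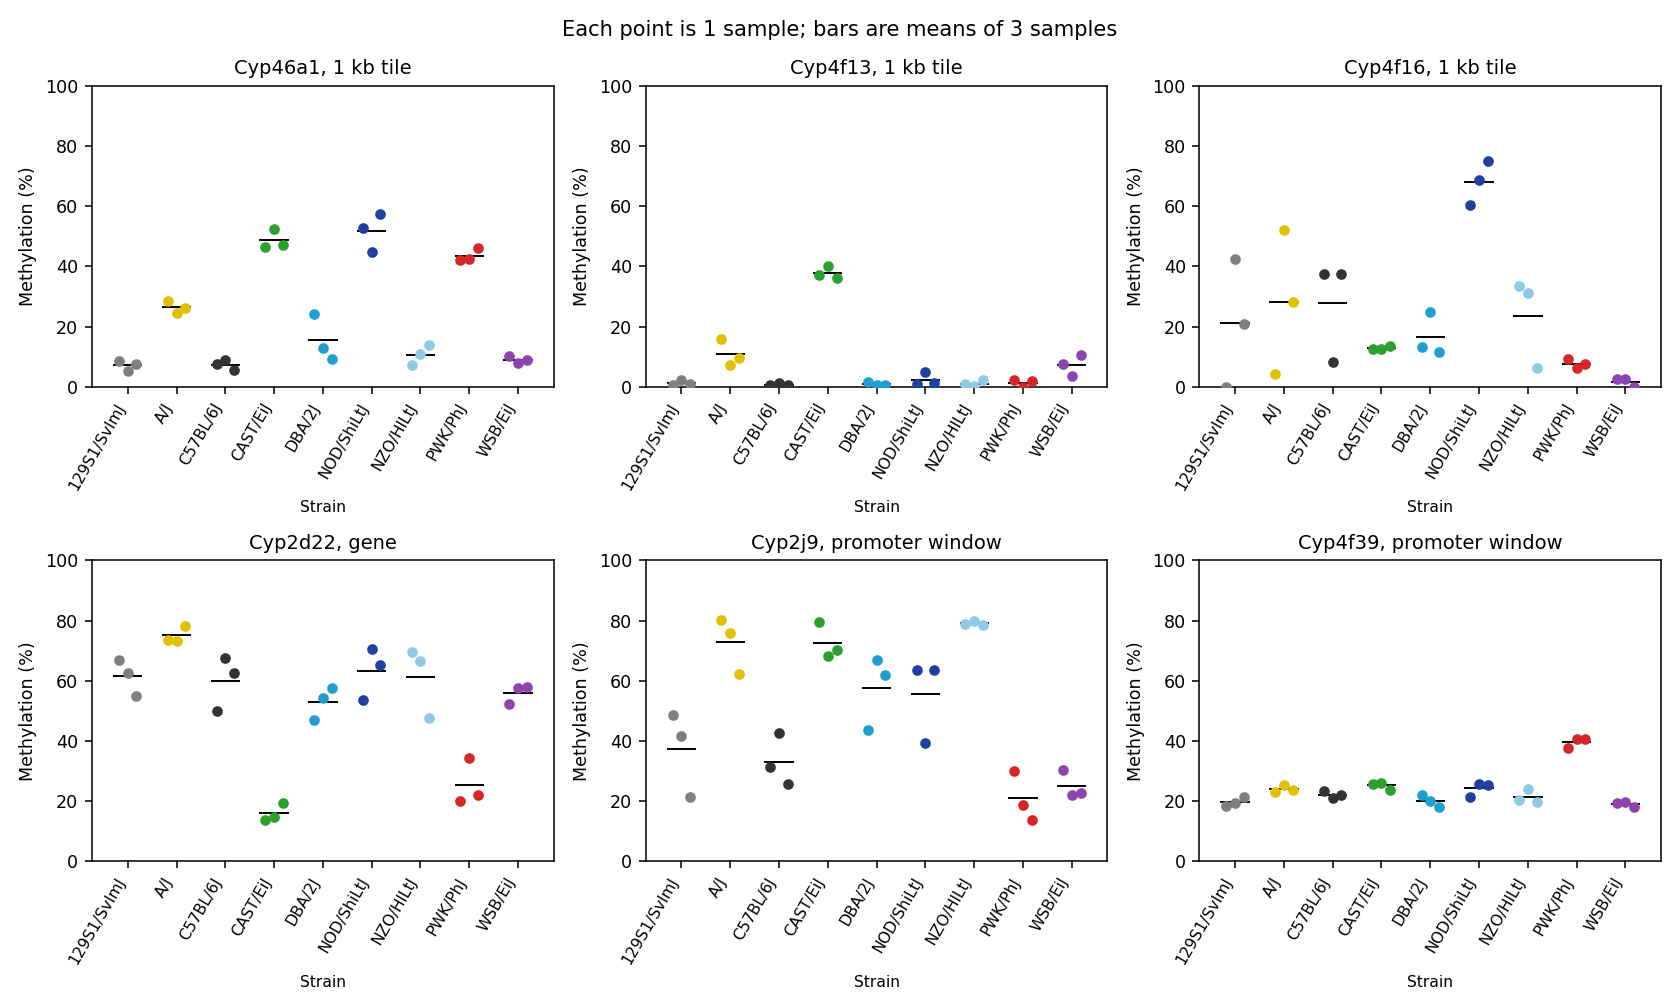
Methylation in percent (y axis) of each of the 3 samples of each strain (x axis) at 1 kb tiles of Cyp46a1, Cyp4f13 and Cyp4f16, at the gene Cyp2d22 and at the promoter windows of Cyp2j9 and Cyp4f39; black bars are strain means. A different set of strains stands out in each panel: CAST/EiJ, NOD/ShiLtJ and PWK/PhJ at Cyp46a1 (43.5 to 51.7%), CAST/EiJ at Cyp4f13 (37.9%), NOD/ShiLtJ at Cyp4f16 (68.1%), and PWK/PhJ at the Cyp4f39 promoter (39.6%).

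Cyp2j genes, whose enzymes make epoxides of arachidonic acid, lie in a cluster on chromosome 4. Of these, 3 of 4 tested were called, against 8.06% of all genes tested. The calls of Cyp2j8 and Cyp2j11 ended without CAST/EiJ and PWK/PhJ. Cyp2j9 (96568424 to 96592523) had 5 positions, 4 of them 154 to 195 bp downstream of its start and counted in its promoter window. In that window NZO/HlLtJ lay at 78.7, 78.9 and 79.8%, A/J at 62.4, 75.8 and 80.1%, and CAST/EiJ at 68.3, 70.2 and 79.5%. PWK/PhJ lay at 13.9, 18.9 and 30.1%, WSB/EiJ at 22.2, 22.8 and 30.2%, and C57BL/6J at 25.8, 31.2 and 42.5%. The 3 high strains did not overlap the 3 low ones (span 58.2 points, F test adjusted p = 4.83e-06). Both sets hold wild-derived and laboratory strains. The other strains lay between: 129S1/SvImJ at 21.5, 41.7 and 48.8% overlapped the low set, and DBA/2J, from 43.7 to 67.1%, overlapped A/J. NOD/ShiLtJ, from 39.4 to 63.6%, overlapped both A/J and C57BL/6J. All 4 positions were called singly, but on the values averaged in the window, so this adds no support. Cyp2j11 (96294508 to 96348693) lay at 95.2, 100 and 100% in CAST/EiJ and at 73.9 to 93.8% elsewhere (span 15.8 points; adjusted p = 0.00729), over 6 positions; the call ended on percentages without the log transform. Cyp2j8 (96443950 to 96507397) was lowest in CAST/EiJ at 78.4 ± 3.56% and highest in NZO/HlLtJ at 90.8 ± 2.21% (span 12.4 points; adjusted p = 0.0135); this call ended without CAST/EiJ replicate 5. Cyp2j6, with a promoter at 3.28%, was not called.

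Of the other fatty acid members, Cyp4b1 lay at 93.7%, Cyp2u1 at 25.04% and Cyp4v3 at 5.64%, and none was called. In Cyp2u1, 5 single positions were called although the gene mean spanned 3.46 points. The 8 Cyp4a genes, peroxisome proliferator targets that hydroxylate fatty acids in liver, had 8 usable positions in all, at 3 genes, and none could be tested.

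Of the 43 genes in the drug-metabolising families, 8 could be tested and 4 were called (50%), against 8.06% of all genes tested. Cyp2d22 (chromosome 15, 82370527 to 82380260), a relative of human CYP2D6, had the widest span of all genes called, 59.1 points (adjusted p = 5.01e-07), from 10 positions within 82374348 to 82374759. CAST/EiJ samples lay at 13.6, 14.9 and 19.6% and PWK/PhJ at 20.1, 21.9 and 34.3%. A/J lay at 73.3, 73.6 and 78.3%, and 129S1/SvImJ, C57BL/6J, DBA/2J, NOD/ShiLtJ, NZO/HlLtJ and WSB/EiJ had samples from 46.9 to 70.6%. The 6 samples of CAST/EiJ and PWK/PhJ lay below all samples of the other strains, the contrast between the 2 strains did not pass the test, and each differed from the other 7. A/J lay above all other samples. The call ended without these 2 strains (adjusted p = 0.121). In 26 samples all 10 positions were listed, and in the other sample 6.

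Cyp2c54 (chromosome 19, 40037939 to 40073845), over 7 positions, was lowest in the same 2 strains: CAST/EiJ at 50, 78.6 and 86.7%, PWK/PhJ at 79.8, 82.0 and 82.9%, and means of 94.2 to 96.4% in the other 7 strains (span 24.7 points; adjusted p = 0.000418). No position of this gene was listed in all 27 samples, so the sample means rest on differing positions. The CAST/EiJ replicates were far apart: without CAST/EiJ replicate 5, the sample at 50%, the span was 14.9 points, PWK/PhJ was the lowest strain and the gene was still called (adjusted p = 8.31e-05). The call ended without the 2 strains (adjusted p = 0.925). Cyp2c23 (chromosome 19, 44005022 to 44029256), an arachidonic acid epoxygenase, was highest in DBA/2J at 79.6, 84.4 and 85.2% and A/J at 81.3, 81.9 and 84.6%, and lowest in CAST/EiJ at 63.0, 63.8 and 70.8% (span 17.2 points; adjusted p = 0.000357). The call ended when the positions listed in all 27 samples alone were used. A tile of 6 positions there had DBA/2J at 53.6 ± 13.5% and A/J at 51.9 ± 5.26%, and WSB/EiJ, PWK/PhJ and CAST/EiJ at 7.41 ± 8.49%, 7.70 ± 6.36% and 9.26 ± 8.49% (span 46.2 points; adjusted p = 0.000641). Cyp2f2 (chromosome 7, 27119955 to 27133660), which oxidises naphthalene, was lowest in NOD/ShiLtJ at 68.8, 71.3 and 71.8%, below all other samples, which ran from 76.9 to 97.0% (span 24.8 points; adjusted p = 5.83e-05).

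The 4 tested and not called were Cyp2c39, Cyp2c66, Cyp2c68 and Cyp3a13, at 88.8, 94.2, 94.7 and 37.2%. Cyp3a13 was the only Cyp3a gene with 5 positions or more; its span was 13.4 points (adjusted p = 0.278). The members outside these groups, Cyp20a1, Cyp2s1, Cyp2t4 and Cyp2w1, lay at 9.26, 25.4, 59.8 and 78.0%, and none was called.

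The strain at the top or bottom changed from gene to gene. Over the 46 tested genes CAST/EiJ was the highest strain at 10 and the lowest at 8, against 19.7% and 9.45% of all genes tested. PWK/PhJ was highest at 9 and A/J at 8, against 26.2% and 19.9%, and C57BL/6J was lowest at 11, against 22.2%. The mean over all 2225 cytochrome P450 positions ran from 32.8 ± 0.250% in CAST/EiJ to 35.95 ± 0.313% in A/J (SD, n = 3), a gap larger than the spread within strains. Over all positions of the genome the means ran from 30.3 ± 0.299% in C57BL/6J to 31.6 ± 0.162% in PWK/PhJ, with CAST/EiJ at 31.3 ± 0.0817%. The low CAST/EiJ mean at cytochrome P450 positions rested on Cyp26c1: over the 2072 positions outside that gene, an alternative added after the data were seen, CAST/EiJ lay at 32.05 ± 0.102%, above 5 strains, and the means ran from 30.1 ± 0.354% in C57BL/6J to 32.97 ± 0.128% in PWK/PhJ. These means carry no test. The highest and lowest strains of a tile did not overlap in any of the 19 called tiles. Tiles were called on these same values, so this adds no support.

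Of 22 redox partners and regulators of P450 genes, 19 could be tested and 3 were called, or 15.8%, against the background of 8.06% of all genes tested; with 19 genes these shares are 1 or 2 genes apart. They were Nr1i2, which encodes the drug receptor PXR, with a span of 18.1 points (adjusted p = 0.00652), Nr1i3, which encodes CAR, with 17.3 points (adjusted p = 6.81e-06), and Nr1h4, which encodes the bile acid receptor FXR, with 11.3 points (adjusted p = 0.00126). The promoters of this list had a median of 0.608% over the 15 that passed the minimum of positions, near the 0.631% over all promoters. Of the 15, those of Nr1i3 at 12.2%, Nr5a2 at 18.8% and Pgrmc1 at 21.9% lay above 10%. Por, the reductase that supplies electrons to microsomal P450 enzymes, lay at 0.587% at its promoter and was not called over its gene.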

How the data were processed

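Per the labels' protocols, RRBS libraries were made from hepatocyte DNA by MspI digestion, adapter ligation, bisulfite conversion and PCR. Per the submitters' processing notes, Trim Galore 0.6.3, Bowtie2 and Bismark 0.22 and the builds GRCm38 and mm10 were used; options and any coverage filter are not given in the sources used here. The authors deposited a percent methylation per position and sample, with no counts, so any coverage filter sets which positions are listed. Of 262039 listed positions within start windows of the GRCm38.p6 RefSeq table, 99.6% fell on a CpG, against 18.4% after a shift of 2 bp. In the C57BL/6J files the mitochondrion is named M and in the others MT, so a difference in processing and the C57BL/6J strain cannot be told apart. Both strands of a CpG counted as separate positions.

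Of 5240332 positions listed in any sample, 1951628 were listed in at least 2 of 3 samples of every strain and used for genes, promoters and tiles. Mean percentages per gene (span plus 2 kb either side, at least 5 positions), promoter window, 1 kb tile and position were transformed to log2((percent + 5)/(100 - percent + 5)), limited to means from 2.5 to 97.5%, and compared among strains with limma's moderated F test, Benjamini-Hochberg adjusted over all features of a scale. It was written in Python 3.11.15 (pandas 2.3.3, numpy 2.4.6, scipy 1.17.1), tested on simulated data and checked against limma 3.58.1 in R 4.3.3 (14818 genes, 4614 under an adjusted p of 0.05 in both, 0 on different sides). Where a gene has several starts, the start with most positions was used. Named genes are the 4 markers, those called at gene, promoter or tile scale, the lowest and highest 3, the 3 with most positions, and members of role lists. The members and lists were chosen with earlier results of these data known. Figures were drawn with matplotlib 3.10.9.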

Additional observations from a re-analysis of the deposited data

How the results depend on the processing

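Of 46 tested genes, 17 were called in the fit described, and leaving out any sample gave 16 to 18. Calls fell to 10 without CAST/EiJ and PWK/PhJ (21.7%, against 3.87% of all genes) and to 11 at a minimum span of 20 points (23.9% against 2.36%); under the other alternatives they numbered 13 to 22. For tiles, with 19 called, leaving out a sample gave 18 to 20, and the count was 6 without those 2 strains (7.06%, against 3.45% of all tiles), 33 at a minimum span of 10 points (36.7% against 17.7%) and 3 at 50 points (3.33% against 1.32%). For promoter windows, with 4 called, leaving out a sample gave 4 to 5, and the count was 2 of 8 without those strains, against 10.7% of all promoter windows, and 2 of 7 within 250 bp of the start, against 21.1%. Single positions were less stable: from 140, leaving out a sample gave 99 to 139, an offset of 1 point gave 77 (7.12%, against 2.97% of all positions), a minimum span of 50 points gave 89 (8.23% against 2.76%), and dropping those strains gave 21 (2.02% against 1.76%). With the replicate number as a block, the replicate block gave 16 genes, 19 tiles, 4 promoter windows and 89 positions, where 7.37, 7.18, 17.7 and 3.75% of all features of each kind were called; Cyp2j8 lost its call. Samples of the same number in different strains did not deviate together over the data as a whole (76 pairs, r from -0.0495 to 0.0516). Pairs of different number gave r from -0.0698 to 0.0584 (248 pairs). The main fit took the numbers as names of samples, and whether samples of 1 number were handled together was not tested. Of 40 named genes, promoters and tiles, 9 were called in every alternative that gave a value, of 157 tried over all scales; Cyp7a1, Cyp8b1 and Cyp26c1 as genes and the Cyp1a1 and Cyp2j9 promoters were among them. The Cyp1a1 promoter window holds the same positions and values as its tile, which lost its call without CAST/EiJ and PWK/PhJ. The cause of these changes was not tested.

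Depth is unknown, so a percent from few reads weighs as much as one from many. Strain genomes were not used. Methylation cannot be set against RNA here, and 49 of the 99 genes had too few positions for a level.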

Other observations

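Some cytochrome P450 genes with too few positions for a gene level still held single positions called different among strains; these were chosen after their values were seen. Cyp2b10, a main target of the receptor CAR and an inducible drug-oxidising enzyme, had 2 usable positions. They lay at 92.3 and 94.3% in 129S1/SvImJ and at 11.9 and 15.4% in PWK/PhJ (means of 3 samples), with the other 7 strains between 38.7 and 65.5%. A position of Cyp2c50 lay at 93.3% in PWK/PhJ and 89.8% in CAST/EiJ, and at 18.3 to 39.1% in the other strains. A position of Cyp4a32 lay at 19.0% in CAST/EiJ and 31.2% in DBA/2J, and at 84.4% in 129S1/SvImJ and 80.6% in NZO/HlLtJ.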
